A study of Rattus norvegicus with 12 samples.

Results

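This comparison sets 3 libraries labelled K815Q against 3 libraries labelled wild-type KAT6A (WT), which are 6 of the 12 libraries of the series, across every expressed gene. The cells were primary ventricular cardiomyocytes from newborn rats, and every culture carried an adenovirus for 2 days. The virus of the WT group held, by its label, human KAT6A with its natural sequence. By its label, the K815Q group received human KAT6A with a lysine replaced by glutamine, a change that the study uses to mimic an acetylated lysine; the level of Kat6a in these libraries goes against that label, as described below. The other 6 libraries serve here as reference levels: 3 had received LacZ, a bacterial gene that controls for the virus, and 3 had received the K815R form, in which arginine keeps the site from being acetylated. Of 32883 genes in the count table, 14063 passed the filter on low counts and were tested.

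KAT6A belongs to the MYST family of lysine acetyltransferases. It acetylates histone tails as part of a complex with a BRPF scaffold protein, an ING reader and MEAF6, and its own activity depends on acetylation within the catalytic domain. AMPK, the kinase named in the title of the study, senses a low energy charge and is built from a catalytic alpha, a scaffolding beta and a nucleotide-binding gamma subunit. In heart muscle it promotes fuel uptake and mitochondrial fuel use and restrains growth through mTOR.

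Gene counts per library lay between 19102048 and 20791074 in the 6 libraries compared and reached 25451686 over all 12. Levels are given below as CPM, a gene's share of the counts of its library after rescaling by TMM factors. CPM values are not corrected for gene length, so each gene is compared with itself only. Cardiomyocyte markers were abundant and alike in both groups: their summed level was 46697 to 47388 CPM in WT and 45052 to 47248 CPM in the labelled K815Q libraries. Fibroblast markers were present as well, at 13961 to 15147 and 15023 to 15937 CPM. In such bulk libraries, fewer cells of a type and less RNA per cell cannot be told apart. The labels do not say whether the 3 libraries of a group came from separate cell preparations, so p-values measure the spread between these libraries, which may be technical.

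The delivered gene was examined first because it checks the labels. Reads were counted against the rat genome, so the row of rat Kat6a holds the cells' own transcript and any reads of the human transgene that match it. Its level was 90.8, 82.0 and 106 CPM in the WT libraries and 43.4, 50.0 and 45.7 CPM in those labelled K815Q. The LacZ libraries, which received no KAT6A, had 45.5, 45.2 and 53.6 CPM, and the K815R libraries had 102, 122 and 101 CPM. Kat6a was thus raised in WT and in K815R, while the group labelled K815Q overlapped the LacZ group. The log2 fold change, labelled K815Q minus WT, was -1.01 (SE 0.11, adjusted p = 0.00148; edgeR quasi-likelihood F test, with p-values adjusted by the Benjamini-Hochberg method across the tested genes). This goes against the label, under which the libraries would carry a KAT6A transgene. The direction of every difference below rests on the labels of both groups.

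Differences below are log2 fold changes, labelled K815Q minus WT, each with its standard error (SE) and the adjusted p of the same test. Prkaa2, which encodes a catalytic alpha subunit of AMPK, showed the reverse order. It stood at 488, 435 and 633 CPM in WT and at 1232, 1134 and 1138 CPM in the libraries labelled K815Q. Both groups lay far above LacZ, at 55.4, 54.8 and 72.7 CPM, and above K815R, at 78.1, 95.4 and 88.1 CPM. The 4 groups do not overlap for this gene. In WT it exceeded LacZ by a log2 change of 3.09 (adjusted p = 2.51e-05, same test), a rise that the WT label does not name. Kat6a and Prkaa2 thus both differ between WT and the labelled K815Q libraries, so the other differences below cannot be assigned to either gene. Prkaa2 was higher in the labelled K815Q libraries than in WT by a log2 change of 1.17 (95% interval 0.82 to 1.52, adjusted p = 0.0107). Its call ended without labelled K815Q replicate 1 or WT replicate 1 (adjusted p = 0.0543 to 0.0693), and when only these 6 libraries were fitted (adjusted p = 0.0547), with a log2 fold change that stayed between 1.06 and 1.34 when any 1 library was left out. The partner subunits showed no shift of that size: the log2 fold change was 0.05 for Prkaa1, the other catalytic subunit (95% interval -0.14 to 0.25), 0.04 for Prkab1 (-0.06 to 0.14), -0.07 for Prkab2 (-0.23 to 0.09) and 0.06 for Prkag2 (-0.11 to 0.22). Prkag1, the widely expressed gamma subunit, was 194 ± 9.68 CPM in WT and 167 ± 9.63 CPM in the labelled K815Q libraries (SD, n = 3). That difference, -0.21 on the log2 scale, missed the threshold (adjusted p = 0.0644), although it passed in DESeq2 (adjusted p = 0.0391), in the fit of 6 libraries (adjusted p = 0.0479) and with no filter on low counts (adjusted p = 0.0111).

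**Figure D1:**
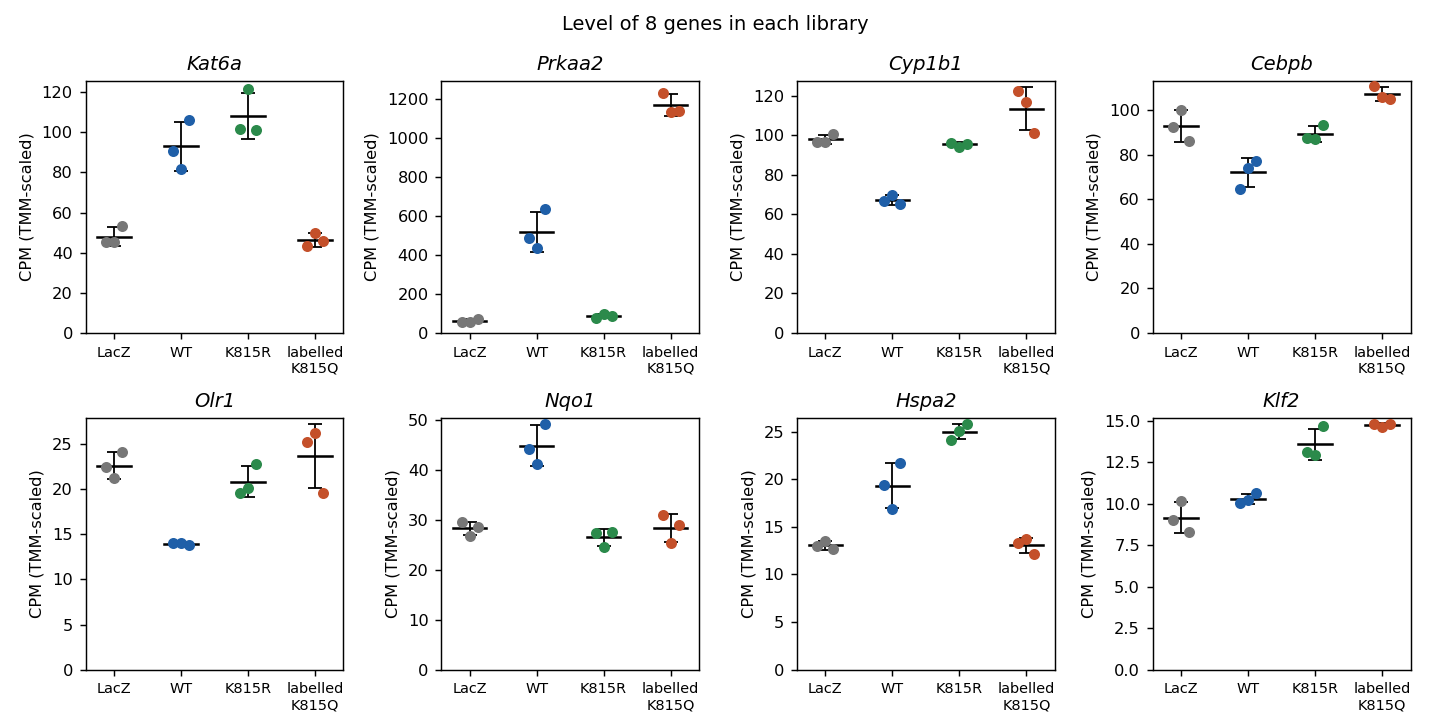
Level of 8 genes in each of the 12 libraries, in TMM-scaled CPM on axes that start at 0; each point is a library, the bar is the group mean and the whiskers are 1 SD (n = 3). Kat6a is high in WT and K815R only, Prkaa2 is high in WT and highest in the libraries labelled K815Q, and for Cyp1b1, Olr1 and Nqo1 the WT libraries stand apart from all others.

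Across the transcriptome, 151 of the 14063 tested genes (1.07%) passed an adjusted p of 0.05 between the libraries labelled K815Q and WT. Of these, 101 (0.718% of tested genes) were higher in the libraries labelled K815Q and 50 (0.356%) were lower. The changes were modest: the median absolute log2 fold change of called genes was 0.42, only 38 changed by 1.5-fold or more, and of the 12 that changed by 2-fold or more, 10 had a mean under 5 CPM and the other two were Prkaa2 and Kat6a. In all 151 called genes the 3 libraries of one group lay wholly above those of the other, as they did in 19.3% of all tested genes, and 2019 genes had an unadjusted p under 0.05. The number of calls depended on single libraries: 50 genes were called without WT replicate 1, 53 without labelled K815Q replicate 1 and 67 without WT replicate 3, against 109 to 146 without any 1 of the others. Of the 151 genes, 34 (23 higher and 11 lower) were called in each of the 6 leave-one-out fits, and 17 in none of them. The share of calls that were higher, 66.9%, was 51.6% when only these 6 libraries were fitted, 49.6% with no filter on low counts and 45.9% without labelled K815Q replicate 2, where 67 genes were called higher and 79 lower.

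The design also bounded how far most genes could differ. For 11168 tested genes (79.4%) the 95% interval of the fold change lay within 1.5-fold in either direction, and for 6176 (43.9%) within 1.2-fold. The median log2 fold change over all tested genes was -0.004, and the median standard error was 0.0888.

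**Figure D2:**
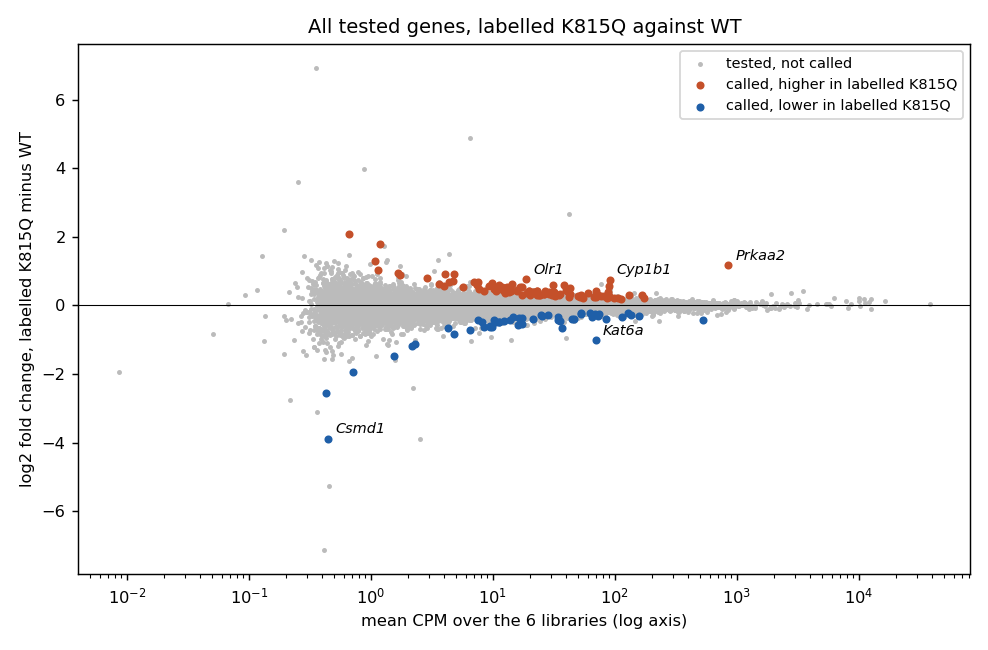
Log2 fold change, labelled K815Q minus WT, of each of the 14063 tested genes against its mean CPM over the 6 libraries (log axis); the 101 genes called higher and the 50 called lower are coloured. Above 5 CPM the called genes lie within 1 log2 unit of 0 except Prkaa2 and Kat6a.

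The called gene with the lowest p-value was Cyp1b1, a cytochrome P450 enzyme that oxidises steroids and polycyclic aromatic compounds and whose transcription is controlled by the aryl hydrocarbon receptor. Nqo1, a quinone reductase, is a textbook target of both that receptor and NRF2, the transcription factor of the antioxidant response. The receptor recognises the core GCGTG, and NRF2 recognises TGACNNNGC. Both motifs were searched on either strand in the RefSeq promoters of assembly GRCr8, each 250 bases before to 50 bases after the gene's start, and the 250 bases before the start are printed here for these 2 genes because they moved in opposite directions. Capitals mark GCGTG or its reverse complement, and the sequences run 5′ to 3′ on the gene's strand.
Cyp1b1, chr6:21094315-21094564, plus strand: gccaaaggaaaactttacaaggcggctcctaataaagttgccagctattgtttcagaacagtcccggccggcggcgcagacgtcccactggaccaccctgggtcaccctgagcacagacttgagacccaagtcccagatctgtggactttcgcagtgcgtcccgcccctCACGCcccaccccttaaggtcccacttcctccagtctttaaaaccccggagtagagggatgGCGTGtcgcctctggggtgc
Nqo1, chr19:52220268-52220517, minus strand: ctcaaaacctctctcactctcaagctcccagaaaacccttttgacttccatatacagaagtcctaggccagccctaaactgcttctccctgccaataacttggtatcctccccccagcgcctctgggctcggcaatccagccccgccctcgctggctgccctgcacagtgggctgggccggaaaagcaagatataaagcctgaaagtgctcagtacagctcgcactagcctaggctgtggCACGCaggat
Within this window the Cyp1b1 promoter held 2 matches to GCGTG and the Nqo1 promoter 1, and neither held TGACNNNGC. Sequence outside the window was not searched, so the absence of a motif here does not mean that the gene lacks such a site. The promoters of Slc7a11 and Akr1b8, both described next, held neither motif. Of all 27457 promoters in the table, 31.1% held GCGTG and 12.2% held TGACNNNGC, and TGACNNNGC ends in the letters with which GCGTG begins, so matches to both can share bases. Among the called genes with a promoter in the table, 33 of 77 higher genes (42.9%) and 18 of 37 lower genes (48.6%) held GCGTG, beside 49.5% of the 10403 tested genes with one.

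Cyp1b1 was 66.9, 69.7 and 65.0 CPM in WT and 122, 117 and 101 CPM in the labelled K815Q libraries. LacZ (96.8, 96.7 and 101 CPM) and K815R (96.2, 94.2 and 95.8 CPM) lay between these groups and did not overlap WT. The log2 fold change was 0.76 (SE 0.0590, adjusted p = 1.08e-07). Nqo1 went the other way, with 44.2, 41.0 and 49.1 CPM in WT and 30.9, 25.4 and 28.9 CPM in the labelled K815Q libraries, a log2 change of -0.66 (SE 0.0786, adjusted p = 0.000103). The LacZ (29.5, 26.8 and 28.6 CPM) and K815R (27.2, 24.4 and 27.6 CPM) libraries overlapped those labelled K815Q, so Nqo1 was high in WT alone among the 4 groups. Slc7a11, the cystine importer that feeds glutathione synthesis, fell from 13.0 ± 1.26 to 9.31 ± 1.27 CPM (SD, n = 3), a log2 change of -0.48 (SE 0.11, adjusted p = 0.0385), with 8.85 CPM in LacZ and 8.21 CPM in K815R. Akr1b8, an aldo-keto reductase that clears reactive aldehydes and has close paralogs among which reads may be split, fell from 20.7 ± 0.926 to 14.2 ± 1.14 CPM, a log2 change of -0.54 (SE 0.0869, adjusted p = 0.00229).

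Of 33 tested NRF2 regulators and antioxidant targets, 2 were called lower (Nqo1 and Slc7a11), beside 0.356% of all tested genes, and none higher. A fold change above 0 was seen in 22 of the 33 (median 0.05), and in 48.8% of all tested genes. Nfe2l2, which encodes NRF2 itself, had a log2 change of 0.08 (95% interval -0.03 to 0.19), and Hmox1, which degrades heme, one of 0.12 (-0.22 to 0.45). Of 9 tested genes of the aryl hydrocarbon receptor and its targets, Cyp1b1 was called higher and Nqo1 lower. Over all tested genes, 1.07% were called in either direction. The receptor gene Ahr was 17.5 ± 2.12 CPM in WT and 20.7 ± 1.62 CPM in the labelled K815Q libraries and was not called (log2 fold change 0.24, adjusted p = 0.229). Cyp1a1, its most inducible target, was near 1 CPM in both groups (1.09 ± 0.203 and 1.14 ± 0.433 CPM), and neither the repressor Ahrr (-0.03) nor Tiparp (-0.07) was called. The call of Slc7a11 ended without labelled K815Q replicate 1 or 3 or WT replicate 1, 2 or 3 (adjusted p = 0.0535 to 0.201), whereas those of Cyp1b1, Nqo1 and Akr1b8 were made in each of the 6 leave-one-out fits.

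Several of the named genes that rose encode regulators of transcription, a grouping made after their values were seen. Cebpb, a bZIP factor of stress and inflammatory responses, rose from 64.8, 74.3 and 77.1 to 111, 106 and 105 CPM, by 0.57 (SE 0.0633, adjusted p = 4.09e-05). The LacZ (92.5, 100.2 and 86.1 CPM) and K815R (87.5, 87.1 and 93.2 CPM) libraries lay between. Klf2 and Klf4 are zinc-finger factors that respond to flow and to serum. Klf2 was 10.0, 10.2 and 10.6 CPM in WT and 14.8, 14.6 and 14.8 CPM in the labelled K815Q libraries, a log2 change of 0.52 (SE 0.0904, adjusted p = 0.00456), and Klf4 was 36.7, 31.9 and 32.1 and 50.3, 46.4 and 41.1 CPM, one of 0.45 (SE 0.0799, adjusted p = 0.00517). For Klf2 the K815R libraries (13.1, 12.9 and 14.7 CPM) were high as well, while LacZ (9.05, 10.2 and 8.28 CPM) was low like WT.

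The developmental factors were expressed at lower levels. Id4, an inhibitor of basic helix-loop-helix factors, rose by 0.68 (SE 0.12, adjusted p = 0.00384), from 5.93, 4.91 and 5.42 to 9.41, 8.13 and 8.49 CPM. Prrx2, a homeobox factor of mesenchyme, rose by 0.67 (SE 0.10, adjusted p = 0.00147), from 5.58, 5.43 and 6.37 to 9.56, 8.89 and 9.33 CPM, with means of 8.20 CPM in LacZ and 7.69 CPM in K815R. Neither group overlapped the other in Id4 and Prrx2, as the rule for naming them required. Both calls were made in each of the 6 leave-one-out fits. Foxc2, a forkhead factor of mesoderm and vessels, rose by 0.63 (SE 0.12, adjusted p = 0.0158) and Sox9, a factor of cartilage and valve mesenchyme, by 0.55 (SE 0.11, adjusted p = 0.0196). Both were spread widely in the labelled K815Q libraries, at 21.1, 16.4 and 14.6 CPM for Foxc2 and 23.8, 19.6 and 15.7 CPM for Sox9, against 11.2, 11.2 and 11.3 and 13.4, 13.7 and 13.1 CPM in WT. The call of Foxc2 ended without labelled K815Q replicate 1 or WT replicate 1, 2 or 3 (adjusted p = 0.0560 to 0.0914), and that of Sox9 without labelled K815Q replicate 1 or 2 or WT replicate 1, 2 or 3 (adjusted p = 0.0537 to 0.125). Of 29 tested immediate early genes, 2 were called higher (Klf2 and Klf4), beside 0.718% of all tested genes, and none lower. The list median was 0.02.

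Other named genes that rose encode membrane receptors or secreted proteins, a grouping made after their values were seen. Olr1, the scavenger receptor for oxidised LDL, was 14.0, 14.1 and 13.8 CPM in WT and 25.2, 26.2 and 19.6 CPM in the labelled K815Q libraries, a log2 change of 0.76 (SE 0.0962, adjusted p = 0.000162). LacZ (22.5, 21.2 and 24.1 CPM) and K815R (19.5, 20.1 and 22.8 CPM) overlapped the labelled K815Q group, so WT was the low group. Scarf2, a scavenger receptor relative, rose by 0.60 (SE 0.0755, adjusted p = 0.000162), from 31.9, 32.2 and 27.7 to 48.0, 45.5 and 45.2 CPM, above LacZ (mean 37.0 CPM) and K815R (36.3 CPM). Gas1, a membrane protein that modulates hedgehog signalling, rose by 0.59 (SE 0.0722, adjusted p = 0.000127), from 23.7, 26.8 and 23.4 to 35.9, 40.4 and 34.7 CPM. Fst, which encodes the activin antagonist follistatin, rose by 0.65 (SE 0.11, adjusted p = 0.00249), from 7.40, 8.84 and 6.80 to 11.8, 13.2 and 11.2 CPM, and LacZ and K815R both averaged 12.2 CPM. F3, tissue factor, the starter of blood clotting, rose by 0.56 (SE 0.10, adjusted p = 0.00517), from 7.96, 6.93 and 7.46 to 10.3, 11.6 and 11.1 CPM, with means of 9.36 CPM in LacZ and 9.72 CPM in K815R. These 5 genes were called in each of the 6 leave-one-out fits.

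The calls of 4 further genes of this kind were less firm. Wnt4, a secreted Wnt ligand, rose from 5.86 ± 0.975 to 8.90 ± 0.435 CPM (SD, n = 3), by 0.60 (SE 0.12, adjusted p = 0.00963), and its call ended without WT replicate 1 or 2 (adjusted p = 0.0540 to 0.0772). Ptx3, a secreted pattern recognition protein, rose from 8.96 ± 0.371 to 13.6 ± 0.406 CPM, by 0.60 (SE 0.14, adjusted p = 0.0498), and its call ended whichever library was left out (adjusted p = 0.117 to 0.228). Cxcl12, the chemokine that binds CXCR4, rose from 24.9 ± 1.05 to 32.8 ± 3.28 CPM, by 0.40 (SE 0.0792, adjusted p = 0.0122), and its call ended without labelled K815Q replicate 1 or 2 or WT replicate 1 or 3 (adjusted p = 0.0537 to 0.102). Ptx3 and Cxcl12 were the only genes called among 33 tested chemokines, interleukins and NF-kB targets, whose median was 0.004. The share called over all tested genes was 1.07%. Pdgfra, a receptor for platelet-derived growth factor and a fibroblast marker, rose from 47.7, 47.1 and 48.1 to 57.3, 63.0 and 55.8 CPM, by 0.30 (SE 0.0641, adjusted p = 0.0189), and its call ended without labelled K815Q replicate 1 or 2 or WT replicate 1, 2 or 3 (adjusted p = 0.0612 to 0.0855). The means of LacZ and K815R were 6.27 and 9.04 CPM for Wnt4 and 18.3 and 15.6 CPM for Ptx3. They were 33.5 and 32.4 CPM for Cxcl12 and 61.2 and 69.2 CPM for Pdgfra. In each of these genes the WT mean was the lowest of the 4 groups.

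Pdgfra was the only one of 16 tested fibroblast markers that was called, beside 1.07% of all tested genes. Of the 16, 13 had a fold change above 0, beside 48.8% of all tested genes, and the median was 0.10. The range of their summed level overlapped between the groups. Their summed level was 13961 to 15147 CPM in WT, 15023 to 15937 CPM in the labelled K815Q libraries, 14624 to 15689.6 CPM in LacZ and 14093 to 14724 CPM in K815R. The values of single markers included 0.14 for Col1a1, 0.12 for Vim, 0.22 for Lum and -0.15 for Postn on the log2 scale, none of them called. The full range was -0.16 to 2.66, and the highest was Col1a2, whose uneven levels between libraries are given under the other observations. An unadjusted p under 0.05 (edgeR) was seen in 6 higher and 2 lower markers. None of the 16 was at 0 in the 6 libraries, and the part of these cells in the rise of the secreted and mesenchymal genes was not tested. No marker of endothelial cells (14 tested), macrophages and leukocytes (17) or smooth muscle and pericytes (12) was called, and none of 47 tested matrix genes.

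Among the genes that fell, Hspa2, a chaperone of the heat shock family, was 19.4, 16.9 and 21.7 CPM in WT and 13.3, 13.7 and 12.2 CPM in the labelled K815Q libraries, a log2 change of -0.57 (SE 0.0873, adjusted p = 0.00153). Its order over the 4 groups resembled that of Kat6a: LacZ had 12.9, 13.5 and 12.7 CPM, like the labelled K815Q group, and K815R had 24.2, 25.0 and 25.7 CPM, above WT. It was the only called gene among 27 tested heat shock proteins and chaperones, beside 1.07% of all tested genes called. The median of that list was 0.02. Chm, which escorts Rab proteins to prenylation, fell by 0.62 (SE 0.11, adjusted p = 0.00384), from 11.7, 10.5 and 12.3 to 7.43, 8.13 and 6.93 CPM. Arrdc3, an arrestin-domain protein that sorts membrane receptors, fell by 0.45 (SE 0.0762, adjusted p = 0.00384), from 39.0, 37.7 and 45.2 to 31.1, 31.3 and 26.9 CPM. Arrdc3 stood at 40.5 CPM in LacZ, as in WT, and at 31.1 CPM in K815R, as in the labelled K815Q libraries. These 3 calls were made in each of the 6 leave-one-out fits.

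The lower genes included a pair of enzymes that act on acyl-CoA, a grouping made after their values were seen. Acad11, an acyl-CoA dehydrogenase, fell from 14.4, 13.7 and 14.4 to 10.1, 10.3 and 10.8 CPM, a log2 change of -0.45 (SE 0.0904, adjusted p = 0.0139), and Acot11, an acyl-CoA thioesterase, from 11.5, 12.0 and 13.1 to 8.32, 9.39 and 8.75 CPM, a log2 change of -0.47 (SE 0.11, adjusted p = 0.0323). In both genes the means of LacZ and K815R lay nearer to the labelled K815Q group than to WT: in Acad11 they were 9.67 and 10.9 CPM, and in Acot11 9.59 and 9.43 CPM. The call of Acad11 ended without labelled K815Q replicate 1 or WT replicate 1 or 3 (adjusted p = 0.0693 to 0.0834) and that of Acot11 without labelled K815Q replicate 1 or 3 or WT replicate 1, 2 or 3 (adjusted p = 0.0693 to 0.189). None of 29 tested genes of fatty acid uptake and oxidation was called, with a median of -0.0007, nor any of 24 genes of the TCA cycle, 24 of glycolysis or 29 of cholesterol and fatty acid synthesis.

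The remaining lower genes of the rule included Myo7a, an unconventional myosin (-0.61 (SE 0.12, adjusted p = 0.00963)), Nufip2, an RNA-binding protein (-0.49 (SE 0.0970, adjusted p = 0.0107)), and Map3k8, a kinase upstream of ERK (-0.48 (SE 0.11, adjusted p = 0.0249)). The loci LOC680227 (-0.71 (SE 0.15, adjusted p = 0.0248)) and AABR07039356.2 (-0.64 (SE 0.14, adjusted p = 0.0278)), which have no functional name, fell as well. In these 5 genes the groups did not overlap, as the rule required. Every call ended when some library was left out: for Myo7a only without labelled K815Q replicate 1 (adjusted p = 0.0769), for Nufip2 without labelled K815Q replicate 1 or WT replicate 1 (adjusted p = 0.0696 to 0.0912), for Map3k8 without labelled K815Q replicate 1 or 3 or WT replicate 1 or 3 (adjusted p = 0.0693 to 0.155), for LOC680227 without labelled K815Q replicate 1 or 3 or WT replicate 1 or 3 (adjusted p = 0.0840 to 0.163) and for AABR07039356.2 without labelled K815Q replicate 1 or 3 or WT replicate 1 or 3 (adjusted p = 0.0776 to 0.167).

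**Figure D3:**
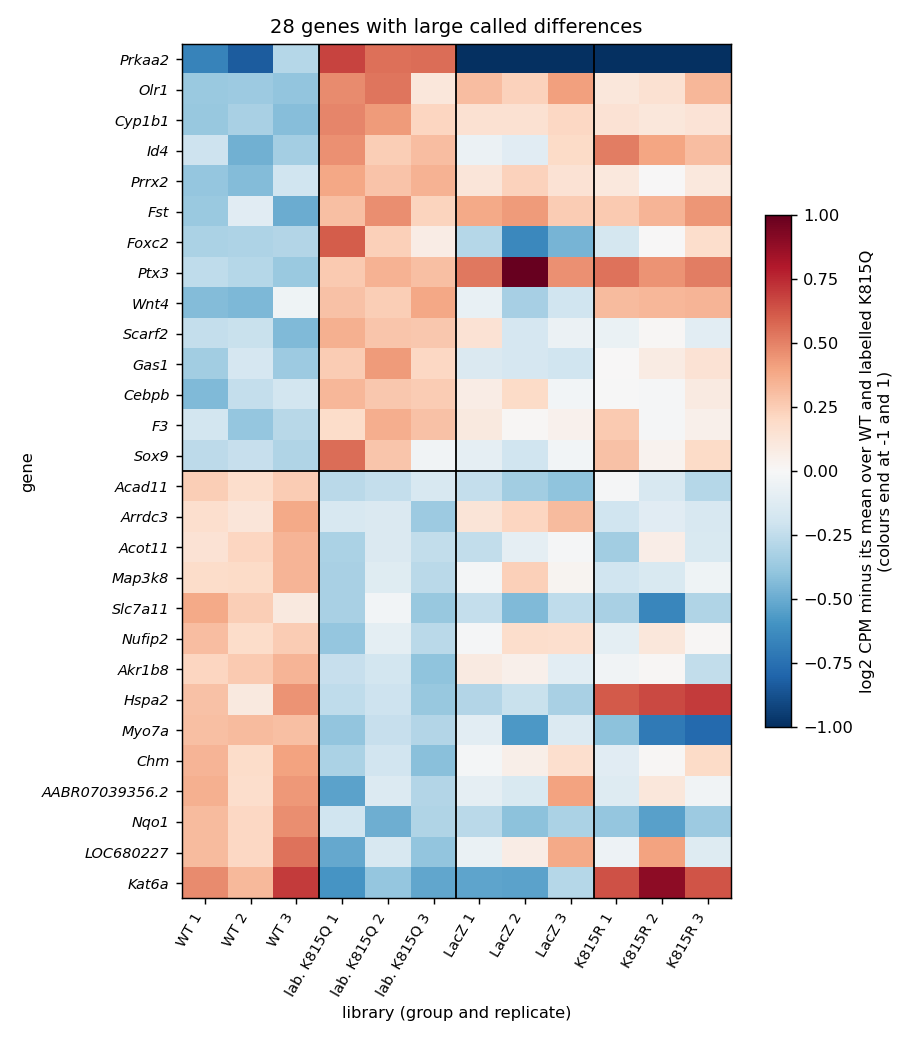
Called genes with large fold changes at 5 CPM or more (14 higher and 14 lower), by library: colour is log2 CPM minus the gene's mean over the WT and labelled K815Q libraries, and colours end at -1 and 1. In the first 6 columns the WT and labelled K815Q libraries do not overlap in any row, which the choice of genes required. In the last 6 columns many rows of LacZ and K815R have the colour of the labelled K815Q libraries, with Prkaa2, Kat6a and Hspa2 among the exceptions.

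Of 14 tested AMPK subunits and upstream kinases, Prkaa2 was called higher and none lower, and the median was 0.05. Stk11, which encodes LKB1, the main kinase that activates AMPK, was 118 ± 5.23 CPM in WT and 118 ± 6.96 CPM in the labelled K815Q libraries (95% interval of the log2 fold change -0.10 to 0.11). Of 26 tested AMPK substrates and mTOR pathway genes, 5 had a fold change above 0, beside 48.8% of all tested genes, and 21 under 0. The median was -0.06, and 1 gene was called. With 1.07% of all tested genes called, 1 call in lists of this size is not a result about their members. The called gene was Fnip2, a partner of folliculin in nutrient sensing, which fell from 11.1, 11.8 and 11.8 to 8.53, 9.65 and 7.87 CPM, a log2 change of -0.41 (SE 0.0986, adjusted p = 0.0396). Its call ended without labelled K815Q replicate 1 or 3 or WT replicate 1, 2 or 3 (adjusted p = 0.0865 to 0.169) and in DESeq2 (adjusted p = 0.0573). Mtor itself had a log2 change of -0.22 (adjusted p = 0.0925), and Acaca and Acacb, the acetyl-CoA carboxylases that AMPK phosphorylates, had -0.28 (0.0767) and -0.18 (0.142), none of them called, although Acaca passed in the fit of 6 libraries (adjusted p = 0.0309).

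Within the KAT6A complex, Kat6a was the only called gene of 8 tested, beside 1.07% of all tested genes. Kat6b, the paralog of Kat6a, was 20.4, 19.8 and 21.8 CPM in WT and 15.4, 16.9 and 15.6 CPM in the labelled K815Q libraries. These levels do not overlap, as in 19.3% of all tested genes. The log2 fold change of -0.37 missed the threshold (adjusted p = 0.0632), which it passed in the fit of 6 libraries (adjusted p = 0.0175). The scaffold Brpf1 (-0.02, 95% interval -0.14 to 0.11) and Meaf6 (0.10, -0.11 to 0.30) were not called. None of 21 other acetyltransferases and deacetylases was called.

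Few of the listed heart muscle genes and mitochondrial genes were called between the groups. Nppa, which encodes atrial natriuretic peptide, was 11043 ± 1192 CPM in WT and 11540.1 ± 541 CPM in the labelled K815Q libraries (SD, n = 3), with a log2 change of 0.06 (95% interval -0.09 to 0.22). Nppb had 0.03 (-0.11 to 0.16), and the myosin heavy chains Myh6 and Myh7 had -0.10 (-0.21 to 0.02) and -0.10 (-0.29 to 0.08). Among 18 tested hypertrophy and fetal genes, only Myh7b was called (lower), beside 0.356% of all tested genes called lower. It fell from 133, 142 and 138 to 115, 113 and 125 CPM, a log2 change of -0.23 (SE 0.0512, adjusted p = 0.0279). Its call ended without labelled K815Q replicate 1 or 2 or WT replicate 1, 2 or 3 (adjusted p = 0.0612 to 0.160). LacZ had 92.8 CPM of Myh7b and K815R 106 CPM, below both. None of 25 tested sarcomere genes and none of 32 genes of calcium handling and ion channels was called. Log2 fold changes ran from -0.35 to 0.16 in the sarcomere list and from -0.48 to 0.43 in the calcium and channel list.

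Regulators of mitochondrial metabolism were not called either. The log2 fold change was -0.15 for the coactivator Ppargc1a (95% interval -0.34 to 0.04), -0.03 for Esrra (-0.13 to 0.07), 0.05 for Tfam, which packages mitochondrial DNA (-0.06 to 0.17), and 0.01 for Cpt1b, which admits fatty acids to mitochondria (-0.12 to 0.13). Pdk4, which shuts pyruvate out of oxidation, was 6.49, 6.51 and 6.75 CPM in WT and 3.38, 6.14 and 5.89 CPM in the labelled K815Q libraries, where replicate 1 was low (-0.36, adjusted p = 0.281). Of 77 tested nuclear subunits of the respiratory chain, 67 had a fold change above 0, beside 48.8% of all tested genes, but the median was only 0.05. Cox4i2, an isoform of cytochrome oxidase that is induced by low oxygen, was the sole call, beside 1.07% of all tested genes called. Cox4i2 rose from 11.2, 11.5 and 13.5 to 14.5, 18.0 and 15.8 CPM, by 0.42 (SE 0.0995, adjusted p = 0.0385), with 17.2 CPM in LacZ and 17.4 CPM in K815R, and its call ended without labelled K815Q replicate 2 or 3 or WT replicate 1 or 2 (adjusted p = 0.0767 to 0.160). Cytosolic ribosomal protein genes showed a like pattern, with 62 of 68 above 0, a median of 0.07 and no call, and the mRNAs of mitochondrial DNA had a median of 0.13 with no call among 13. Those mitochondrial mRNAs took 10.5% to 12.7% of gene counts in the WT libraries and 11.3% to 12.7% in the labelled K815Q libraries.

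None of 36 tested genes of the type I interferon response was called. Of these, 35 had a fold change under 0, with a median of -0.31, and 1 had an unadjusted p under 0.05 (edgeR). Over all tested genes, 48.8% had a fold change above 0. Their summed level was 499.5 to 714 CPM in WT and 468 to 553 CPM in the labelled K815Q libraries, which overlap. It was 1389 to 2049 CPM in LacZ and 672 to 774 CPM in K815R. For 1 member, Isg15, the ubiquitin-like interferon-induced protein, the levels were 11.0, 4.44 and 6.80 CPM in WT and 4.99, 5.38 and 6.04 CPM in the labelled K815Q libraries, with 40.4, 80.2 and 37.3 CPM in LacZ. Ifitm3, an antiviral membrane protein, and Ifitm1 are outside this list and were called higher. Their log2 changes were 0.31 (SE 0.0640, adjusted p = 0.0162) and 0.29 (SE 0.0664, adjusted p = 0.0334). These calls were made in 2 and 1 of the 6 leave-one-out fits, and both genes were named after their values were seen. Among 22 tested p53 targets, only Phlda3, which holds back the kinase Akt, was called, beside 1.07% of all tested genes. It was higher, from 146, 148 and 147 to 196, 174 and 179.8 CPM (0.32 (SE 0.0541, adjusted p = 0.00384)), and its call was made in each of the 6 leave-one-out fits. Phlda3 averaged 189 CPM in LacZ and 173 CPM in K815R, so WT was the low group. Of 28 tested genes of the integrated stress response, Cebpb was called higher and Slc7a11 lower, beside 1.07% of all tested genes called. None of 38 tested cell cycle genes, 20 regulators of mitochondrial biogenesis or 41 autophagy and lysosome genes was called.

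**Figure D4:**
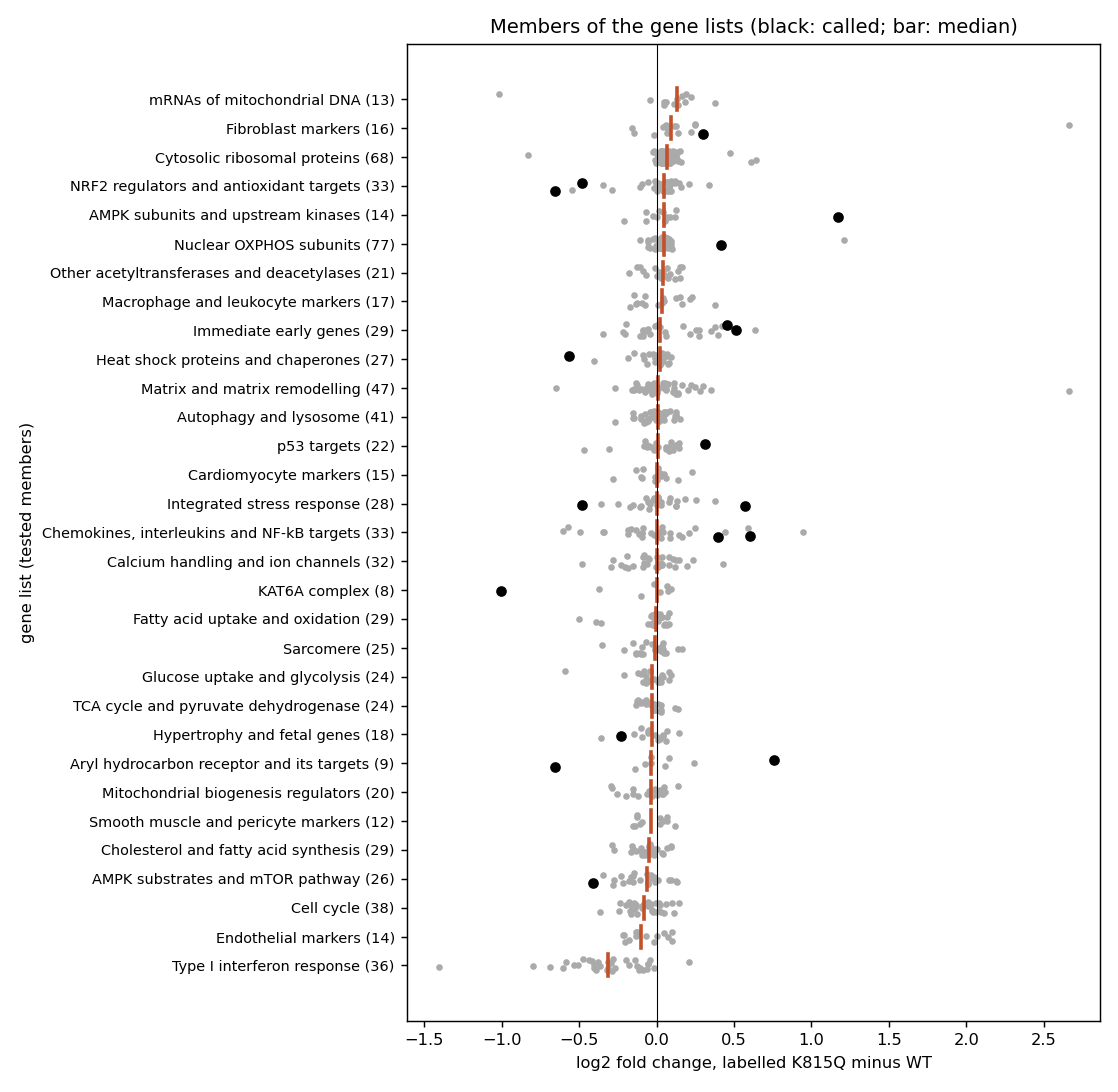
Log2 fold change, labelled K815Q minus WT, of the tested members of gene lists, with the number of tested members in brackets; black points are called genes and the vertical bar of each row is the median of the list. Lists with at least 5 tested members are drawn. Their medians lie between -0.31 for the type I interferon response and 0.13 for the mRNAs of mitochondrial DNA, and no list has more than 2 called members.

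The LacZ and K815R libraries were not among the groups contrasted, but the model of 12 libraries used them to estimate the spread, so they had a part in which genes were called. Their levels show which of the groups stood apart for each called gene. This description was chosen after the values were seen. In 82 of the 151 called genes (54.3%, against 30.6% of all tested genes) the means of both LacZ and K815R lay nearer to the labelled K815Q group than to WT, and in 27 both lay nearer to WT. All 3 WT libraries lay beyond all 9 others in 93 called genes, as the lowest in 67 and the highest in 26. Over all tested genes this share was 3.87%. The 3 labelled K815Q libraries lay beyond all 9 others in 41 called genes (26 highest and 15 lowest), against 3.06% of all tested genes. A gene called between WT and the labelled K815Q group has these groups apart by construction, so the shares of called and tested genes describe the genes and are no test.

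K815R against LacZ is a comparison of a KAT6A form with the control in libraries that the contrast does not share. It called 348 genes (2.47% of those tested). Of the 151 genes called between labelled K815Q and WT, 16 were called there too, which is 10.6% of the 151 and 4.60% of the 348. Kat6a, Hspa2, Nptx2, Bmp3, Mrc2, Ifitm3 and Ptgfrn differed in opposite directions, so that K815R stood to LacZ as WT stood to the labelled K815Q group. For Hspa2 the log2 fold change of K815R minus LacZ was 0.94 (adjusted p = 9.28e-07), for Nptx2, a secreted pentraxin, it was 1.09 (0.00364), and for Ifitm3, an antiviral membrane protein with close paralogs, -0.35 (0.00262). The other 9 (Bicc1, Pcare, Wnt4, Klf2, Id1, Clk1, Arrdc3, Errfi1 and Gpc3) differed in the same direction, as in Klf2 at 0.57 (0.000666) and Wnt4 at 0.53 (0.00854). Of these 16 genes, those outside the naming rule were named after their values were seen.

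Over all 151 called genes, 61 (40.4%; 44 higher and 17 lower) had K815R and LacZ ordered as WT and labelled K815Q, beside 41.9% of all tested genes. The median log2 fold change of K815R minus LacZ was 0.03 in the genes called higher, -0.06 in those called lower and 0.003 in all tested genes. The correlation of the 2 contrasts across the called genes was 0.181 (Pearson) and 0.281 (Spearman), and 0.252 (Pearson) without Kat6a. Across all tested genes it was 0.0571 and 0.188. Genes are not independent replicates, and these values describe 12 libraries only.

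**Figure D5:**
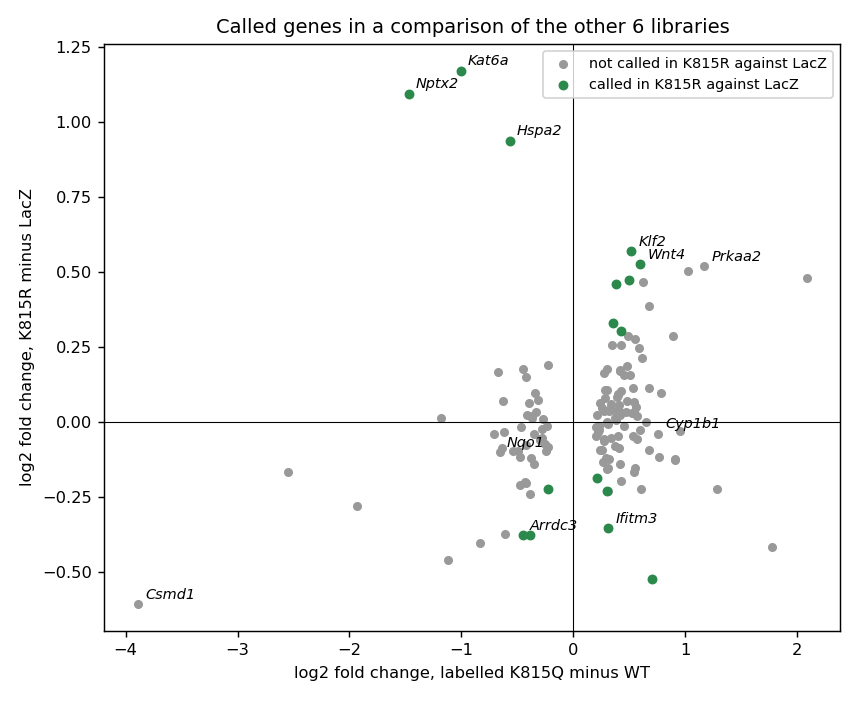
For the 151 called genes, log2 fold change of labelled K815Q minus WT (horizontal) against that of K815R minus LacZ (vertical), which use different libraries; green points are the 16 genes also called in K815R against LacZ. Kat6a, Nptx2 and Hspa2 lie at the top left, Klf2 and Wnt4 at the top right, and most points lie near 0 on the vertical axis.

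A core of 30 called genes (22 higher and 8 lower) passed in each of the 6 leave-one-out fits, in DESeq2, with the replicate number as a term and when these 6 libraries were fitted alone. It included Cyp1b1, Cebpb, Olr1, Scarf2, Gas1, Fst, F3, Id4, Prrx2, Klf2, Klf4 and Phlda3 among the higher genes and Kat6a, Nqo1, Hspa2, Chm, Akr1b8 and Arrdc3 among the lower, and also 11 genes outside the naming rule, named here after their values were seen. Those higher were Efemp2, a protein of elastic fibres (74.0, 76.1 and 77.2 CPM in WT and 99.0, 96.4 and 100.2 CPM in the labelled K815Q libraries), Vegfc, a growth factor of lymphatic vessels (7.66, 8.06 and 9.31 and 12.1, 12.8 and 11.5 CPM), and Bicc1, Msi1, Tmem178a, Plpp1, Numbl, Limd2 and Clmp. Those lower were Ass1, the argininosuccinate synthase of arginine synthesis (6.09, 5.94 and 6.46 and 3.74, 3.05 and 3.60 CPM), and C4b, a complement component (3.19, 3.00 and 3.33 and 1.77, 1.32 and 1.30 CPM). Below 5 CPM the largest called difference was that of Csmd1, a large membrane protein, at 0.659, 0.827 and 1.05 CPM in WT and 0.104, 0.0508 and 0 CPM in the labelled K815Q libraries, also named after its values were seen. Csmd1 averaged 0.256 CPM in LacZ and 0.173 CPM in K815R. It passed the filter on low counts only through WT, its high group, so its call is not independent of that filter. A count of 3 corresponds to 0.144 to 0.157 CPM in these libraries, so Csmd1 was under that level in all 3 labelled K815Q libraries and its fold change cannot be sized.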

How the data were processed

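Poly(A) RNA from 12 cultures of rat cardiomyocytes was sequenced, and the authors deposited 1 table of raw read counts per gene. Per the submitters' processing notes, Trimmomatic 0.39, HISAT2 2.2.1, HTSeq 0.6.1 and edgeR were used with build Rnor_6.0; which annotation and strand setting were used is not given in the sources used here, so overlapping and antisense genes are uncertain. Groups and replicate numbers came from the sample titles. Rows that name no gene were left out; reads in no annotated feature were 11.7% to 12.9% and reads placed more than once 25.6% to 26.9% of all reads. The filter was filterByExpr with a minimum count of 10 and a minimum total of 15. In R 4.3.3, edgeR 4.0.16 fitted 1 model of group means over the 12 libraries (TMM factors, robust quasi-likelihood), with Benjamini-Hochberg adjustment over 14063 genes and a threshold of 0.05; the common biological coefficient of variation was 0.0581. No pair of libraries within a group agreed within sampling noise (chi-square per degree of freedom 4.78 to 9.29). The procedure was tested on simulated data.

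The text names up to 15 called genes in each direction with the largest fold change, at 5 CPM or more and with no overlap between the 6 libraries, every called member of 33 gene lists, and a panel of 26 genes; some of these genes are not reported here. These members, lists and the panel were chosen with earlier results of these data known. Promoters from RefSeq (GRCr8) matched 10403 of the tested genes (74.0%), by Ensembl identifier where one was listed and otherwise by symbol or synonym. With fewer than 80% matched, a check of GC content is void. Alternatives were other scalings, filters, DESeq2 1.42.0, a replicate block, a fit of 6 libraries, a minimum change and leaving out each library.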

Additional observations from a re-analysis of the deposited data

How the results depend on the processing

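The 151 calls (101 higher, 50 lower) became 156 with RLE and 157 with upper-quartile scaling, 149 with at least 10 counts in every library and 180 in DESeq2. Without a filter on low counts 423 genes were called (210 higher, 213 lower), in the fit of only the 6 libraries compared 219 (106 of them lower), and against a minimum change of 1.2-fold 16 (8 higher, 8 lower). Leaving out 1 library gave 50 to 146 calls, 27 to 98 higher and 16 to 79 lower. The 61 called genes with K815R and LacZ ordered as WT and labelled K815Q became 137 with no filter, 10 with the minimum change and 19 to 54 without 1 library. Genes held within a bound were 11168 at 1.5-fold, 6176 at 1.2-fold and 13077 at 2-fold. Kat6a kept its call in every alternative, from -1.09 to -0.90 without 1 library. Prkaa2 missed the threshold at 1.17 with the 6 libraries and with the minimum change (adjusted p = 0.0547 and 0.0549), and ranged from 1.06 to 1.34 without 1 library, where adjusted p reached 0.0693. Of the 38 calls that the naming rule picked, 19 were made in all 6 fits without a library, 8 with the minimum change, 37 in DESeq2 and 37 in the fit of 6 libraries. The cause of these shifts was not tested, except that the fits without a library hold fewer samples.

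Some panel genes that were not called changed sign without 1 library, with log2 fold changes near 0: Prkaa1 ranged from -0.0293 to 0.135, Prkab2 from -0.124 to 0.00580, Prkag2 from -0.0216 to 0.135, Stk11 from -0.0401 to 0.0443, Cpt1b from -0.0485 to 0.0603, Nppa from -0.0230 to 0.116, Nppb from -0.0466 to 0.0763, Cyp1a1 from -0.281 to 0.275 and Ahrr from -0.120 to 0.0462.

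Replicate numbers are shared by the titles of both groups, but nothing says that a number marks a shared preparation. Deviations from the group means correlated at 0.107, 0.0950 and 0.283 between same-numbered libraries, and at -0.155 to 0.0469 between others, so every library correlated best with its own number, which is a hint from the data and not from the design. With the replicate number as a block, 232 genes were called (128 higher, 104 lower), all 151 among them, and Prkag1 (adjusted p = 0.0371), Kat6b (0.0457) and Mtor (0.0364) passed the threshold.

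Counts of 3 correspond to 0.118 to 0.157 CPM, and levels below that have no order.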

Other observations

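Some genes differed most in single libraries and were not called. Pdcd5, an apoptosis-related gene, was 19.1, 0.0508 and 18.6 CPM in the labelled K815Q libraries and 0.355, 0 and 0.855 CPM in WT, with at most 1.11 CPM in the LacZ and K815R libraries. Its log2 fold change was 4.90 (95% interval 1.47 to 8.33, adjusted p = 0.191, edgeR). Col1a2, which encodes a chain of type I collagen, was 126, 81.0 and 9.85 CPM in the labelled K815Q libraries, 12.3, 9.46 and 12.5 CPM in WT, 9.72, 15.7 and 10.4 CPM in LacZ and 74.3, 9.14 and 16.9 CPM in K815R. Its partner chain Col1a1 was 8064, 8413 and 7935 CPM in the labelled K815Q libraries and 7264, 7659 and 7213 CPM in WT. The Col1a2 level was thus high in 3 libraries from 2 groups. Among the mRNAs of mitochondrial DNA, Mt-nd4 was 16.1, 34.1 and 6.80 CPM in WT and 8.94, 11.5 and 7.45 CPM in the labelled K815Q libraries, while Mt-nd4l, which shares its transcript, was 492, 423 and 455 and 443, 467 and 422 CPM. These genes were chosen after their values were seen.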
